A study of Mus musculus with 28 samples.

Results

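Small nucleolar RNAs (snoRNAs) and small Cajal body RNAs (scaRNAs) are short noncoding RNAs that steer chemical modification of other RNAs. The genes described here are the rows of the deposited nascent RNA tables whose symbols begin with Snord, Snora or Scarna, 119 of 24984 rows in all. They comprise 74 Snord genes, 36 Snora genes and 9 Scarna genes. C/D box snoRNAs (Snord) guide methylation of riboses, mostly in ribosomal RNA, and are bound by fibrillarin, Nop56, Nop58 and Snu13. H/ACA box snoRNAs (Snora) guide the conversion of uridine to pseudouridine with dyskerin, Gar1, Nhp2 and Nop10, and scaRNAs do such work on spliceosomal RNAs in Cajal bodies. In vertebrates most of these RNAs are cut from introns of other genes, so that their nascent RNA is made by RNA polymerase II as it passes through the host gene.

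The assay was Bru-seq. Bromouridine given to living cells for minutes enters the RNA being made, and RNA that holds it is then isolated for sequencing. The cells were mouse CCE28 embryonic stem cells, wild type (WT) or a null line for Elongin A (EloA, gene Eloa), a transcription elongation factor of RNA polymerase II. Both lines were grown with 2i/LIF on feeder cells, which were removed before plating, and each genotype is 1 cell line. One protocol in the labels names the cells CJ7. Steady-state cells received 2 mM bromouridine for 10 min without drug. Recovering cells were first held for 60 min in 1 µM flavopiridol, an inhibitor of the kinase P-TEFb that keeps RNA polymerase II from leaving promoter-proximal pauses. The drug was then washed out and bromouridine was given for 5 min or 10 min. Each of the 6 groups had 2 libraries, 12 in all. The study describes its Bru-seq replicates as independent experiments, the labels name no culture for any library, and p-values measure the spread between these samples. One steady-state library is titled EloA null and carries a genotype label of wild type. Its title decided its group here, and key counts are also given without it.

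Nascent RNA from Eloa itself was not lower in the libraries labelled EloA null. In steady state it was 1.18 and 1.16 RPKM (reads scaled to gene length and library size) in WT. It was 1.96 RPKM in the library whose labels conflict and 1.89 RPKM in the other library titled EloA null. The same direction was seen after 5 min and 10 min of recovery. Nascent RNA does not measure the protein, which the study examined in both lines by immunoblot. In its EloA null cells the study also reports that EloA antibody signal on chromatin at the Rn45s gene was near that of control IgG. All 8 embryonic stem cell markers examined, such as Pou5f1 and Nanog, were above 0.5 RPKM. Of 8 fibroblast markers that feeder cells would bring, 3 passed that level in at least 1 steady-state library. Their summed level was 2.08 to 2.37 RPKM in WT and 1.65 to 2.01 RPKM in the libraries labelled EloA null in steady state. At 5 min of recovery the sums were 2.63 to 2.95 and 1.57 to 2.00 RPKM, and at 10 min 3.51 to 4.50 and 2.52 to 3.20 RPKM. In each condition the ranges of the genotypes did not overlap, and the part of these markers in the results below was not tested. In bulk samples such as these, fewer cells of a type and less RNA per cell cannot be told apart.

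The names of the genes were checked against the sequence of their annotated spans in GRCm38/mm10. A C/D RNA carries a C box near its 5′ end and a D box near its 3′ end, and an H/ACA RNA ends with the letters ACA and a short tail. GENCODE spans were found for 115 of the 119 genes. On the sense strand, TGATG (the core of the C box) lay in the first 25 bases of 62 of 72 Snord spans, or 86.1%. It lay there in 6 of 72 windows of the same length that started 500 bases downstream, or 8.33%. CTGA (the D box) lay in the last 12 bases of 60 Snord spans, or 83.3%, against 5.56% of the windows. The letters ACA lay in the last 6 bases of 31 of 34 Snora spans, or 91.2%, against 11.8% of the windows, and in 4 of the 72 Snord spans. TGATG was in the first 25 bases of 0 Snora spans. The 9 Scarna spans were mixed, with TGATG in 4 and ACA at the end in 4.

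The sequences of 7 members are shown because they carry the comparisons that follow. Snord100 had the most nascent RNA, and the other 6 are pairs of members that lie at different depths in 1 host gene. All are written 5′ to 3′ on the strand of the gene, from the reference genome at GENCODE positions in GRCm38/mm10. Capitals mark TGATG in the first 25 bases and CTGA in the last 12 bases of Snord genes, and ACA in the last 6 bases of Snora genes. Snord100 lies in an intron of Rps12 at chr10:23785750-23785823 on the minus strand. Snord92 (chr17:71631281-71631365) and Snord53 (chr17:71640879-71640956) lie in introns of Wdr43 on the plus strand. Snord70 (chr1:59691934-59692020) and Snord11 (chr1:59704790-59704873) lie in introns of Nop58 on the plus strand. Snora2b (chr15:98526346-98526482) and Snora34 (chr15:98519716-98519853) lie in introns of Kansl2 on the minus strand.
Snord100: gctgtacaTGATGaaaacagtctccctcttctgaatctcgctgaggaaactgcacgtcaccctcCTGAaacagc
Snord92: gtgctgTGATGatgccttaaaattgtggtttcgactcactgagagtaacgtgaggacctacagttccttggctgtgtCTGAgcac
Snord53: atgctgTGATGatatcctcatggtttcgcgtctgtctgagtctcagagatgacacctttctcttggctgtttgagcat
Snord70: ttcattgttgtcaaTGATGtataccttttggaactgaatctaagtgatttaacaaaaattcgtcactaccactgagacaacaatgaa
Snord11: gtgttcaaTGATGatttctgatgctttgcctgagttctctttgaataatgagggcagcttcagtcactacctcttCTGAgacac
Snora2b: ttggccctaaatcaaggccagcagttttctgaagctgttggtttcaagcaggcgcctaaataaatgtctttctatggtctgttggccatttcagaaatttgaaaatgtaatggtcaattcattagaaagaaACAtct
Snora34: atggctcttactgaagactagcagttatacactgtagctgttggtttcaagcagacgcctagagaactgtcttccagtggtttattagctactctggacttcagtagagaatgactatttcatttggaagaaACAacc
The letters CTGA were not found in the last 12 bases of Snord53 and Snord70. Aligned end to end, Snord92 and Snord53 shared 57 of 86 columns (66.3%), Snord70 and Snord11 shared 46.7%, and Snora2b and Snora34 shared 97 of 140 columns (69.3%).

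By the RefSeq annotation of GRCm38, 118 of the 119 genes were placed and 115 of them lay inside another gene on the same strand. Of these, 110 were in an intron and 5 touched an exon. Their 85 host genes included many that encode ribosomal proteins, which held 32 of the members (21 Snord and 11 Snora). Protein-coding hosts held 85 members and noncoding hosts, such as Gas5 and the Snhg genes, held 30. Scarna2, Snord118 and Snord89 had no gene around them on their strand. The tables hold 0 rows for Snord3, Snord13, Snord113, Snord114 and Snord115, and 3 rows for Snord116.

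The members are short, so each value rests on few reads. The deposited values are RPKM, and read numbers were recovered from the smallest increments of each library. Lengths given with reads are those over which reads were counted, which for 104 members fit the RefSeq span. The RefSeq span was shorter than the GENCODE span for 93 of the 115 members that have a GENCODE span. A single read over 68 bases, the median length of the Snord genes with at least 20 reads, was worth between 0.515 RPKM in the deepest library and 1.49 RPKM in the shallowest. Over 120 bases, close to the median length of 121 bases for the Snora genes, it was worth between 0.292 and 0.845 RPKM. In steady state a library gave 6928 to 8138 reads over all 119 members together, and the median member had a mean of 48.8 reads over the 4 libraries of the table. The 5-min libraries were shallower, with 2231 to 4062 reads over the members and a median of 15 reads, and the 10-min libraries gave 6366 to 9414 reads and a median of 43 reads. Counts of members below use those with a mean of at least 20 reads over the 4 libraries of a table. That left 86 members in steady state (51 Snord, 31 Snora and 4 Scarna), 52 after 5 min of recovery and 82 after 10 min. Reads are not independent molecules, so limits set from them cover counting error only.

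Of the 119 members, 8 were listed at 0 in all 12 libraries. Snora35 lies in Htr2c, which was itself close to 0 with 0.000753 RPKM in steady-state WT. Snord116, Snord116l1 and Snord116l2 belong to the imprinted Snhg14 locus, where the host had 0.193 RPKM, and the reference span of the latter pair occurs 30 times in the genome without a mismatch. Snord64, of the same locus, had 1 and 3 reads in steady-state WT and 0 in the libraries labelled EloA null. Snord123 lies in Snhg18, with 0.0423 RPKM. Snord14a, Snord14c and Snord14d, C/D RNAs that pair with the small-subunit ribosomal RNA, stood apart because their hosts were well transcribed. In steady-state WT the host of Snord14a, Rps13, had 14.3 RPKM and the host of Snord14c and Snord14d, Hspa8, had 24.4 RPKM. For an 87-base gene such as these, 3 reads, the limit that a count of 0 allows, are worth 1.21 to 3.50 RPKM per library. Each of the 3 spans occurs once in the genome. Snord14c and Snord14d are 97.7% identical to each other (84 of 86 columns), and Snord14a and Snord14c are 77.8% identical. A read that lies within bases shared by Snord14c and Snord14d cannot separate those genes, and whether this bears on their counts was not tested. The 3 sequences are shown with capitals as above, at positions in GRCm38/mm10. Snord14a lies at chr7:116333171-116333257 on the minus strand. Snord14c (chr9:40803583-40803668) and Snord14d (chr9:40803995-40804080) lie on the plus strand.
Snord14a: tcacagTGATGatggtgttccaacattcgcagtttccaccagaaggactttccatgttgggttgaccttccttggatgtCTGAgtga
Snord14c: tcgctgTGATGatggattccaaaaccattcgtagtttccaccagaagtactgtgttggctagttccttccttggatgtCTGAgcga
Snord14d: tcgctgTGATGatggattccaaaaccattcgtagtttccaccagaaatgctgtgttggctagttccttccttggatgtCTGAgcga

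Among members with at least 20 reads in steady state, the Snord genes carried more nascent RNA per length than the Snora genes. The median over the 51 Snord genes was 41.1 and 37.3 RPKM in the 2 WT libraries and 46.8 and 30.1 RPKM in the libraries labelled EloA null. For the 31 Snora genes the median was 22.2 and 19.8 RPKM in WT and 24.4 and 25.2 RPKM in the libraries labelled EloA null. The Snord level was above the Snora level in each of the 4 libraries. In WT the medians of the library means differed by 0.93 on the log2 scale, or 1.91-fold. In the single WT libraries they differed by 0.89 and 0.91 (SD 0.02). With members of fewer reads included the difference was 0.17. A fixed minimum of reads asks a higher RPKM of a shorter gene, and it kept 51 of 74 Snord and 31 of 36 Snora genes. The median length of those kept was 68 bases for Snord and 121 bases for Snora. The part of this limit in the class difference was not tested. The hosts differed in the same direction, with a median of 25.2 RPKM for the hosts of 47 intronic Snord genes and 15.8 RPKM for those of 29 intronic Snora genes. RPKM of host genes was counted over their introns, as the steps of their values show. Set against its host, a Snord gene held as many reads as 124 bases of host intron did (median). This was 50.5 bases more than its counted length (interquartile range 14.9 to 80.4). A Snora gene held as many as 154 bases, or 34.5 more than its counted length (15.1 to 62.7). The interquartile ranges of this excess overlapped. Many counted spans are shorter than the GENCODE span, and the part of this in the excess was not tested. Fragments that only partly cover a short gene can be counted for it too, and whether member and host share reads in the tables is not given in the sources used here.

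The Snord genes with the most nascent RNA sat mainly in ribosomal protein genes, which held 5 of the leading 8. Snord100 in Rps12 had 212 and 151 RPKM in WT and 225 and 159 RPKM in the libraries labelled EloA null, so that replicates differed more than genotypes. Snord47 in Gas5 followed with 136, 130, 142 and 102 RPKM in the same order of libraries. The next were Snord83b in Rpl3 (108 to 131 RPKM over the 4 libraries), Snord2 in Eif4a2 (103 to 140 RPKM), Snord32a in Rpl13a (89.4 to 120 RPKM), Snord42a in Rpl23a (90.3 to 108 RPKM), Snord34 in Rpl13a (81.9 to 133 RPKM) and Snord49a in 2410006H16Rik (75.7 to 107 RPKM). Snord100 did not overlap Snord47, while neighbours among the 6 that followed had overlapping ranges.

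The Snora genes with the most nascent RNA reached lower levels. Snora65 in Rpl12 had 37.2 and 43.7 RPKM in WT and 48.7 and 65.5 RPKM in the libraries labelled EloA null. Snora3 in Rpl27a (up to 53.3 RPKM), Snora33 in Rps12 (35.4 to 56.0 RPKM), Snora75 in Ncl, the gene of nucleolin (33.0 to 42.9 RPKM), and Snora61 in Snhg12 (26.3 to 53.7 RPKM) came next. Snora62 in Rpsa, a ribosomal protein gene, Snora81 in Eif4a2 and Snora74a in Snhg4 reached 41.1 to 43.6 RPKM. Rps12 and Eif4a2 each hold 1 of the 8 leading Snord genes and 1 of the 8 leading Snora genes, and in both the Snord gene had the higher RPKM in all 4 libraries.

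The scaRNA genes were measured less evenly. Scarna2, which guides modification of the U2 spliceosomal RNA and is transcribed from a promoter of its own, had 32.9 and 86.9 RPKM in WT and 38.3 and 77.4 RPKM in the libraries labelled EloA null. The second library of each genotype was the higher one. Scarna9 in Cep295 split the same way, with 27.9 and 55.4 RPKM and then 27.8 and 52.0 RPKM. Scarna6 in Atg16l1 (5.40 to 7.42 RPKM) and Scarna13 in Snhg10 (2.59 to 3.13 RPKM) were low and even. Of the other members known to have promoters of their own, Snord118, the U8 RNA of ribosomal RNA processing, had 1 to 3 reads per steady-state library and Scarna17 had 4 to 18. Both stayed under the limit of 20 reads. The plot of steady-state levels shows the 20 leading members by library.

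**Figure D1:**
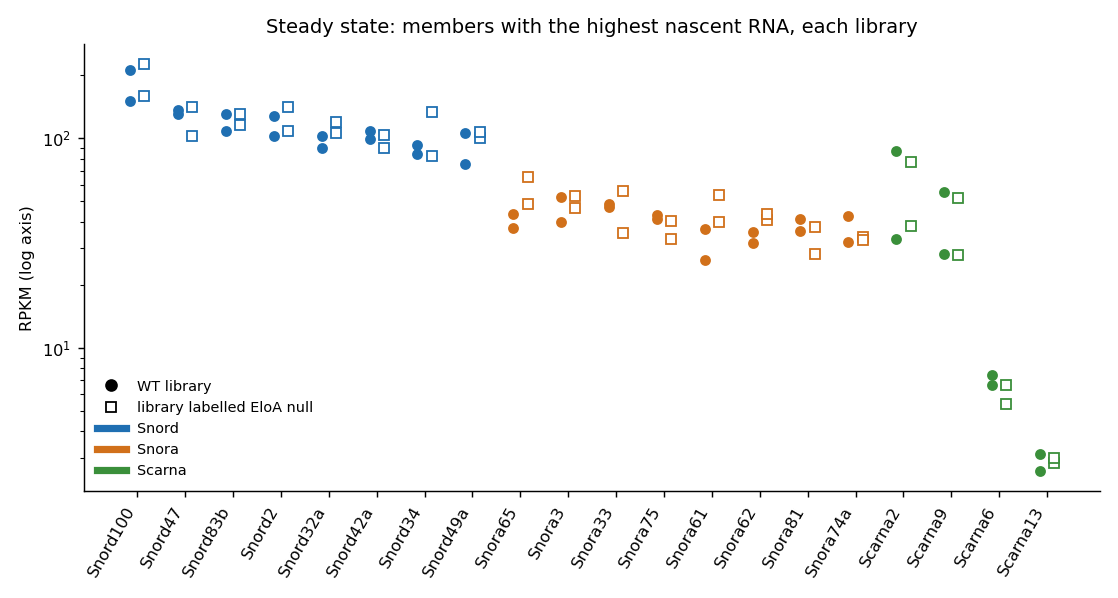
Nascent RNA (RPKM, log axis) in steady state for the 8 Snord, 8 Snora and 4 Scarna genes with the highest mean; each point is 1 library, filled circles for WT and open squares for libraries labelled EloA null. Snord100 reached 225 RPKM and Scarna13 stayed at 3.13 RPKM or lower.

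The first question was whether nascent RNA from these genes differs between WT and EloA null cells, which was tested within each table by limma on log2(RPKM + 0.1). With Benjamini-Hochberg adjustment over all genes fitted, 0 of 110 members passed an adjusted p of 0.05 in steady state, 0 of 109 after 5 min of recovery and 0 of 108 after 10 min. The background was the same, since 0% of all genes passed in each table (0 of 11345, 8984 and 10239 genes). At an unadjusted p under 0.05 limma gave 14, 9 and 20 members, beside 2083, 846 and 2098 of all genes fitted. A fit limited to genes with at least 20 reads called 1 member in steady state, 1 after 5 min and 3 after 10 min, beside 1001, 121 and 375 genes in all. A fit of all 12 libraries called 0, 2 and 1 members, beside 128, 449 and 336 genes. One with the replicate number as a block called 0, 6 and 0 members, beside 0, 128 and 0 genes. In the limma interaction fit of all 12 libraries, 0 of 111 members passed for a genotype difference that changed between steady state and either recovery time, where 7 and 1 members had an unadjusted p under 0.05, beside 780 and 196 of 11973 genes. The comparison for both recovery times uses the same steady-state libraries.

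Past a 1.5-fold ratio of mean RPKM in steady state, 9 of the 86 members had more RNA in the libraries labelled EloA null (10.5%, against 8.62% of all genes with at least 20 reads) and 0 were lower (1.88% of all genes). The 9 were Snord69 and Snord19 in Gnl3, Snord35b, Snord57 in Nop56, Snora44 and Snora16a in Snhg12, Snora7a in Rpl32, Snora31 in Tpt1 and Snora64 in Rps2, which are 4 of 51 Snord and 5 of 31 Snora genes. At 5 min, 5 of 52 members were higher past this limit (9.62%, all genes 5.75%) and 1 was lower (all genes 6.35%). After 10 min 7 of 82 were higher (8.54%, all genes 11%) and 0 were lower (all genes 3.2%). Without the steady-state library whose labels conflict, 11 members were higher and 6 lower in steady state. At 5 min, 8 were lower without the second library labelled EloA null and 3 without the first. After 10 min, 15 were higher without the first WT library. With all libraries in, the shares of higher members lay near those of all genes. The shares of lower members were below those of all genes, a difference that was not tested. For the counts with a library left out, shares of all genes were not computed.

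Counted by lack of overlap between the 2 and 2 libraries, 24 of 86 members were higher in steady state (27.9%, all genes 35.5%) and 7 lower (8.14%, all genes 21.1%). After 5 min the counts were 16 higher of 52 (30.8%, all genes 17.8%) and 7 lower (13.5%, all genes 26.4%). After 10 min they were 21 higher of 82 (25.6%, all genes 35.2%) and 5 lower (6.10%, all genes 22%). An exact permutation test of 2 against 2 libraries cannot give a two-sided p below 0.333. Of the 52 members with at least 20 reads in all 3 tables, 4 were higher without overlap in all 3 (7.69%, all genes 11.8%) and 0 were lower in all 3 (all genes 10.8%). The 4 were Snord19, Snord69, Snora16a and Snora31.

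By class, the median log2 ratio of libraries labelled EloA null to WT in steady state was 0.06 for Snord and 0.11 for Snora genes, beside 0.04 for all genes. The spread between libraries around these medians was 0.18 and 0.09 (SD of the difference, from 2 libraries a group). After 5 min of recovery the medians were -0.04 for Snord (SD 0.08) and 0.16 for Snora (SD 0.14), beside -0.05 for all genes. With at least 50 reads to enter, the 5-min median was -0.20 for both classes, so that of Snora turned. After 10 min the medians were 0.13 (SD 0.23) and 0.11 (SD 0.18), beside 0.05. The Snord and Snora medians lay within 1.5 SD of 0 in all 3 tables, and both classes spread to either side of 0 in the plot of genotype ratios. Members and their hosts had similar ratios in steady state and after 10 min, and less so after 5 min. Across 82 members in 59 hosts in steady state Pearson's r between the log2 ratio of a member and that of its host was 0.81 (Spearman's rho 0.82). Pearson's r was 0.64 over 49 members after 5 min (rho 0.51) and 0.74 over 78 members after 10 min (rho 0.71). The ratio of a member lay on the same side of 0 as that of its host for 69 of 82 members in steady state. After 5 min this held for 30 of 49 members and after 10 min for 64 of 78. These are descriptions across genes, since members of 1 host share its libraries and may share its reads.

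**Figure D2:**
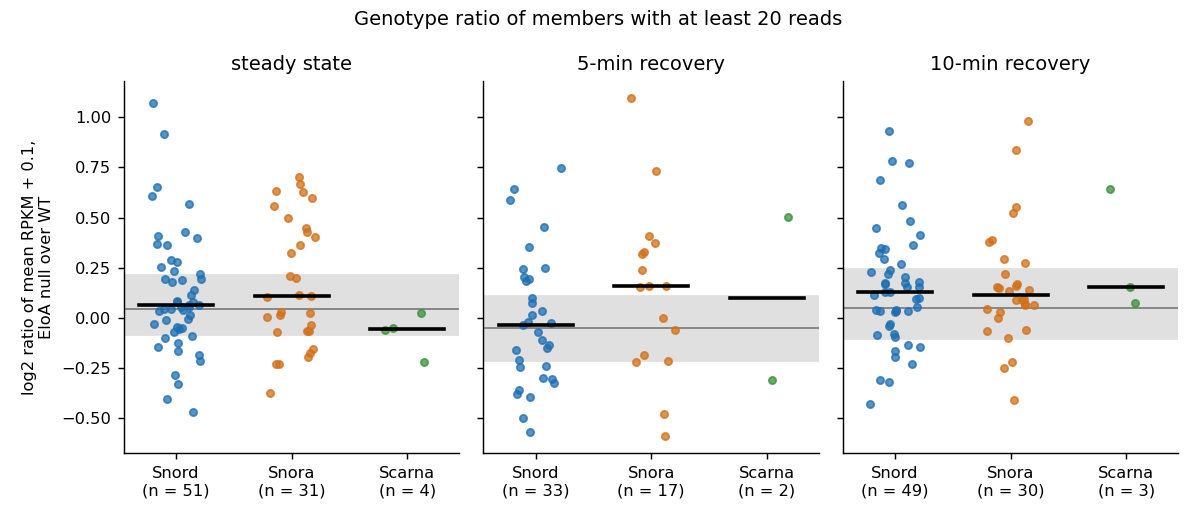
Log2 ratio of mean RPKM + 0.1, libraries labelled EloA null over WT, for each member with a mean of at least 20 reads, by class and table; points are members, black bars class medians, the grey line and band the median and quartiles of all genes with at least 20 reads. The Snord and Snora medians lay between -0.04 and 0.16.

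Most members with large differences lay in hosts whose own nascent RNA was higher too. Gnl3, the gene of nucleostemin, a nucleolar GTP-binding protein, had 13.2 RPKM in WT and 20.6 RPKM in the libraries labelled EloA null in steady state. Its member Snord19 had 32.5 and 38.5 RPKM in WT and 60.0 and 48.4 RPKM in the libraries labelled EloA null. After 10 min of recovery Snord19 had 65.9 and 79.8 RPKM against 125 and 123 RPKM. The groups did not overlap in any of the 3 tables, and by limma the log2 difference after 10 min was 0.78 ± 0.11 (SE, Benjamini-Hochberg adjusted p = 0.0986). Snord69, in another intron of Gnl3, had 12.1 and 6.07 RPKM against 25.6 and 12.7 RPKM in steady state, a log2 difference of 1.07 ± 0.48 (limma, SE, Benjamini-Hochberg adjusted p = 0.331). Its mean of 20.8 reads was just above the limit, and the lowest library labelled EloA null was barely above the highest WT library.

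Snord35b was the member with the best separated genotypes in steady state. It had 13.6 and 12.5 RPKM in WT and 26.1 and 23.3 RPKM in the libraries labelled EloA null, from 28, 30, 52 and 56 reads. The log2 difference was 0.91 ± 0.12 (limma, SE), with a Benjamini-Hochberg adjusted p of 0.103 in the fit as planned and 0.0203 in the fit limited to genes with at least 20 reads. After 5 min of recovery the groups of Snord35b overlapped, at 10.6 and 16.5 RPKM in WT and 16.6 and 13.5 RPKM in the libraries labelled EloA null. Snord57 in Nop56, which encodes a C/D core protein, had 39.9 and 39.8 RPKM against 58.3 and 67.0 RPKM in steady state (limma, Benjamini-Hochberg adjusted p = 0.125). After 10 min the groups overlapped, at 58.2 and 38.9 RPKM against 49.3 and 50.0 RPKM, and a difference between tables did not pass the interaction test.

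Snhg12 is a noncoding gene whose introns carry 4 members with at least 20 reads in steady state, and its own level was 14.0 RPKM in WT and 21.1 RPKM in the libraries labelled EloA null. Snora44 had 15.0 and 20.2 RPKM against 24.4 and 33.0 RPKM, a ratio of 1.63 (limma, Benjamini-Hochberg adjusted p = 0.223). Snora16a had 22.2 and 18.2 RPKM against 36.2 and 26.3 RPKM, a ratio of 1.55. The ratios of Snora61 and Snord99 were 1.48 and 1.35, and none of the 4 overlapped between genotypes. After 10 min of recovery Snora16a had 9.38 and 10.3 RPKM against 22.1 and 17.0 RPKM, a log2 difference of 0.97 ± 0.16 (limma, SE, Benjamini-Hochberg adjusted p = 0.108, and 0.0417 with at least 20 reads to enter). Rpl13a, the other host of 4 such members, gave smaller ratios. Snord32a, Snord33, Snord34 and Snord35a had ratios of 1.17 to 1.29 in steady state, beside a change of the host from 34.5 to 41.6 RPKM.

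Snora31 lies in Tpt1, which encodes the translationally controlled tumour protein. After 5 min of recovery it had 9.06 and 8.46 RPKM in WT and 16.5 and 21.2 RPKM in the libraries labelled EloA null. By limma this was a log2 difference of 1.09 ± 0.20 (SE), with a Benjamini-Hochberg adjusted p of 0.25, which was 0.0414 with at least 20 reads to enter and 0.0469 with the replicate block. These values rested on 10, 12, 22 and 41 reads. The host had 7.63 and 11.7 RPKM at that time. Snord4a in Rpl23a also stood out after 5 min, at 17.4 and 20.3 RPKM against 33.6 and 29.8 RPKM (limma, Benjamini-Hochberg adjusted p = 0.4), while Snord42a in the same gene was lower, at 51.8 and 52.6 RPKM against 41.0 and 42.5 RPKM. The 2 neighbours therefore differed in sign, and their host was at 14.5 and 12.6 RPKM. After 10 min, Snord7, which overlaps an exon of AI450353, had 6.09 and 7.56 RPKM against 13.0 and 13.1 RPKM (limma, Benjamini-Hochberg adjusted p = 0.0982), and in steady state it had a mean of only 10.8 reads.

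The 3 members with the lowest ratios in steady state did not keep that direction after 10 min. In steady state Snord87 in Snhg6 had 46.9 and 50.8 RPKM against 41.5 and 29.0 RPKM, but after 10 min of recovery 48.8 and 60.7 RPKM against 71.1 and 63.0 RPKM. Snord1c in Snhg16 had 22.5 and 20.7 RPKM against 16.1 and 16.5 RPKM in steady state. Snora20 in Tcp1, a chaperonin subunit gene, had 14.4 and 16.4 RPKM against 12 and 11.7 RPKM. Both were higher on average in the libraries labelled EloA null after 10 min, and none of the 3 passed the limma test (Benjamini-Hochberg adjusted p from 0.174 to 0.303). After 5 min of recovery Snora75 in Ncl had 18.4 and 25.2 RPKM against 10.9 and 18 RPKM, and Snord65 in 2410006H16Rik had 96.1 and 97.0 RPKM against 53.0 and 83.3 RPKM. Snord17 in Snx5, the longest of the Snord genes with 20 reads, had 32.1 and 33.2 RPKM against 21.6 and 22.3 RPKM, with 57 to 93 reads per library. Its ratio was 0.961 in steady state and 1.12 after 10 min. After 10 min the lowest ratios were those of Snord73a in Rps3a1 (33.6 and 35.3 RPKM against 28 and 23.2 RPKM), Snord42a (80.3 and 88.7 RPKM against 64.6 and 70.8 RPKM) and Snord91a in Tsr1 (42.5 and 38.5 RPKM against 30.9 and 34.4 RPKM).

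The genes that make and carry snoRNA particles were examined as a list. By limma with Benjamini-Hochberg adjustment, 0 of 4 C/D core genes, 0 of 4 H/ACA core genes and 0 of 13 genes of assembly and transport passed in steady state, and 0 passed after 5 min or 10 min of recovery. At an unadjusted p under 0.05 limma gave 2, 0 and 3 in steady state, beside 2083 of 11345 genes fitted. After 5 min it gave 0, 0 and 1, beside 846 of 8984 genes, and after 10 min 1, 1 and 2, beside 2098 of 10239 genes. Nop56 had 17.7 and 17.8 RPKM in WT and 21.6 and 23.4 RPKM in the libraries labelled EloA null (limma, Benjamini-Hochberg adjusted p = 0.203). Fbl, the gene of fibrillarin, the methyltransferase of C/D particles, had 7.31 and 6.95 RPKM against 8.77 and 8.71 RPKM (adjusted p = 0.207). The 3 assembly and transport genes in steady state were Nufip1 and Pih1d1, which were higher, and Znhit6, which was lower. Their limma Benjamini-Hochberg adjusted p was 0.165, 0.175 and 0.265. Nop56 and Nop58 are hosts of members themselves, of Snord57 and of Snord70 and Snord11.

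The second comparison follows release from flavopiridol. The 3 conditions lie in tables that were normalized separately, so ratios between them are given as descriptions with no test, and both recovery times are set against the same steady-state libraries. The label window also differs, since it is 5 min in the first recovery table and 10 min in the other tables. In WT the median log2 ratio of 5-min recovery to steady state was -0.32 ± 0.10 for Snord (SD over 2 libraries, 51 genes), beside -0.47 for all genes. For Snora (31 genes) it was -0.92 from the library means, but -0.72 and -0.74 in the single libraries (SD 0.01). That SD therefore does not cover the value of -0.92. After 10 min the medians were 0.28 ± 0.17 for Snord and 0.02 ± 0.12 for Snora, beside -0.12. For EloA null libraries they were -0.45 and -0.71 after 5 min and 0.24 and 0.11 after 10 min. The Snora median was thus below the Snord median at 5 min in both genotypes, and the medians were closer at 10 min. This order at 5 min turned when members of noncoding hosts were left out, to -0.34 for Snord and -0.24 for Snora in WT and to -0.61 and -0.43 in the libraries labelled EloA null.

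Counted past 1.5-fold in WT at 5 min, 9 of 86 members were higher than in steady state (10.5%, all genes 14.3%) and 37 were lower (43.0%, all genes 52.8%). The lower ones were 20 of 51 Snord genes (39.2%) and 17 of 31 Snora genes (54.8%). At 10 min, 24 members were higher (27.9%, all genes 25.5%), 14 Snord and 10 Snora, and 19 were lower (22.1%, all genes 37.4%). Without overlap between the 2 and 2 WT libraries, 17 members were higher (all genes 22.6%) and 45 lower (all genes 63.6%) at 5 min, and 36 were higher (all genes 36%) and 25 lower (all genes 50.2%) at 10 min. In the libraries labelled EloA null, 7 were higher (all genes 14.2%) and 42 lower (all genes 57.3%) at 5 min, and 24 higher (all genes 26.2%) and 18 lower (all genes 37.2%) at 10 min. In each of the 4 settings the share of lower members was below that of all genes, a difference that was not tested. The measures are unlike. A member is a short stretch, within 10 kb of its host's start for 75 of them, while RPKM of genes with introns averages over all their introns. The same holds for the medians above.

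The kind of host went with the size of the ratio. Members that start within 10 kb of their host's start were grouped by host. The 21 in noncoding hosts (13 hosts) had a median log2 ratio of -0.63 at 5 min and -0.38 at 10 min in WT. The 29 in ribosomal protein genes (21 hosts) were at -0.52 and -0.04, and the 25 in other coding genes (18 hosts) at 0.06 and 0.66. At 10 min the median of single WT libraries was -0.0048 and -0.34 for noncoding hosts, 0.07 and -0.23 for ribosomal protein genes and 0.80 and 0.54 for other coding genes, so that the first and second kinds overlapped. Within the noncoding hosts the 9 Snora genes (6 hosts) were at -1.28 and -1.03 and the 11 Snord genes (7 hosts) at -0.15 and 0.16. Within ribosomal protein genes the class medians were close, at -0.52 and 0.02 for 11 Snora genes and -0.55 and -0.11 for 18 Snord genes. In other coding genes they were at 0.10 and 0.79 for 9 Snora genes and -0.14 and 0.56 for 16 Snord genes. With members of noncoding hosts left out, the 10-min medians in WT were 0.31 for Snord and 0.42 for Snora. At 5 min 8 of the 9 Snora genes in noncoding hosts were below steady state by more than 1.5-fold in WT, beside 52.8% of all genes. Among these 9, Snora16a, Snora44 and Snora61 share the host Snhg12, so they are not separate cases.

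Single members are given as examples, and members of 1 kind of host differed among themselves. Of the 11 Snord genes in noncoding hosts, 3 were lower past 1.5-fold at 5 min in WT and 1 was higher (all genes 52.8% and 14.3%). At 10 min 1 of them was lower and 2 were higher (all genes 37.4% and 25.5%). Snord47 in Gas5, a host whose mRNA-like transcript is degraded during translation, had 136 and 130 RPKM in steady-state WT, 43.7 and 40.1 RPKM at 5 min and 104 and 85.1 RPKM at 10 min. Snord12 in Zfas1 had 82.4 and 80.3 RPKM, then 15.4 and 13.2 RPKM, then 28.2 and 28.2 RPKM. Snora17 in Snhg7 went from a mean of 29.4 to 5.94 and 14.1 RPKM. These 3 were below steady state at both times without overlap, whereas Snord22 in Snhg1, also noncoding, went from a mean of 46.7 to 76.1 and 65.5 RPKM. In coding hosts, Snord2 in Eif4a2, a translation initiation factor gene, had 127 and 103 RPKM, then 169 and 193 RPKM, then 204 and 211 RPKM. Snora15 in Cct6a, a chaperonin subunit gene, had 19.1 and 19.4 RPKM, then 29.7 and 32 RPKM, then 54.0 and 40.3 RPKM. Snord69 in Gnl3 had the largest ratios, with means of 9.06, 28.9 and 37.9 RPKM, and Snord19 beside it had 35.5, 59.3 and 72.8 RPKM. Snord73a in Rps3a1 went from 12.3 and 13.2 RPKM to 33.6 and 35.3 RPKM at 10 min, the largest gain among the members in ribosomal protein genes.

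Scarna2, which has no host, was higher at 5 min of recovery than in either of the 10-min label windows. It had 173 and 155 RPKM in WT and 122 and 142 RPKM in the libraries labelled EloA null at 5 min, against 32.9 to 86.9 RPKM in the 4 steady-state libraries. At 10 min it had 61.8, 59.5, 38.6 and 89.0 RPKM, within the steady-state range but for the highest. The values rest on 47 to 155 reads per library.

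Most members over 20 kb from the start of their host differed from near members at 10 min. In WT the 75 members with at least 20 reads within 10 kb of the start (52 hosts) had a median log2 ratio of -0.32 at 5 min and 0.18 at 10 min. The other 10 lay at 15.1 kb or farther. The 3 at 10 to 20 kb had a median of -2.89 at 5 min and 0.59 at 10 min. The 7 over 20 kb were at -0.88 and -2.19, so they were lower at 10 min than at 5 min. At 5 min their median was above that of the 3, and the reason was not tested. At 10 min, 6 of the 7 members over 20 kb were below steady state by more than 1.5-fold, in WT and in the libraries labelled EloA null alike, while 13 of the 75 near members were so in WT and 12 in the other genotype. The exception was Scarna9, 31.5 kb into Cep295, with a mean of 41.7, 34.1 and 34.4 RPKM in steady state, at 5 min and at 10 min. Snora23, 28 kb into the importin gene Ipo7, went from 17.0 to 3.31 and 1.42 RPKM in WT. Scarna6, 28.6 kb into Atg16l1, was at 7.03, 6.73 and 1.93 RPKM. Farther still, Snord71 (Ap1g1, 60.7 kb) was at 13.2, 2.99 and 0.354 RPKM and Snord67 (Ckap5, 69.3 kb) at 8.05, 11.2 and 3.71 RPKM. Snora23, Snord71, Snord67 and Scarna6 had at most 18 reads in any 10-min library, and Snord71 and Snord67 had about 20 reads on average even in steady state. The plot of recovery against distance shows each of these members.

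**Figure D3:**
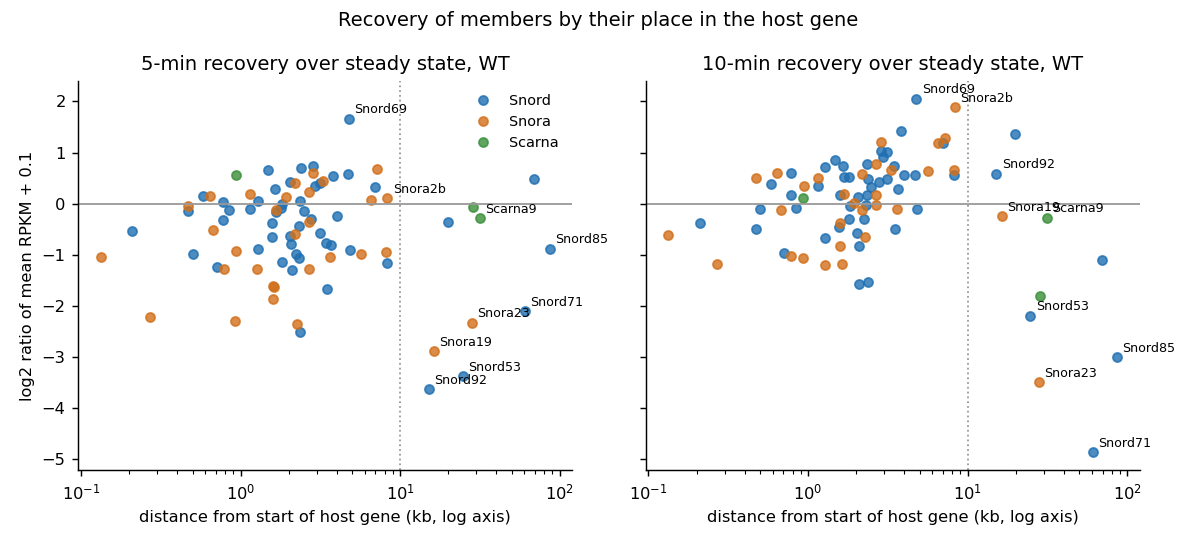
Log2 ratio of mean RPKM + 0.1, recovery over steady state in WT, against the distance in kb from the start of the host gene to the member (log axis), for members with at least 20 reads in steady state; points are members, the dotted line stands at 10 kb. At 10 min 6 of the 7 members beyond 20 kb lie below steady state by more than 1.5-fold (all genes 37.4%).

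Pairs of members in 1 host allow distances to be compared with the host held the same. In Wdr43, whose product takes part in ribosomal RNA processing, Snord92 lies 15.1 kb and Snord53 24.7 kb from the start. Snord92 had 19.7 and 24.6 RPKM in steady-state WT and 19.3 and 26.7 RPKM in the libraries labelled EloA null. At 5 min it had 2 and 1 reads in WT and 0 and 1 in the libraries labelled EloA null. At 10 min it was back at 36.5 and 30.0 RPKM and at 32.6 and 38.4 RPKM, above steady state in all 4 libraries. Snord53 began at a like level, 17.0 and 19.6 RPKM in WT and 19.6 and 15.9 RPKM in the libraries labelled EloA null, and had 0 to 2 reads per library at 5 min. At 10 min it had 4.92 and 2.94 RPKM in WT and 2.32 and 0.973 RPKM in the libraries labelled EloA null, from 10, 7, 5 and 3 reads. The near member was thus above and the far member below steady state at 10 min in each genotype. The genotype difference of Snord53 at that time did not pass limma (Benjamini-Hochberg adjusted p = 0.237).

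In Nop58, Snord70 lies 7.0 kb and Snord11 19.8 kb from the start. Snord70 had 56.8 and 39.2 RPKM in steady-state WT, 55.5 and 65.5 RPKM at 5 min and 100 and 120 RPKM at 10 min. Snord11 had 13.3 and 11.9 RPKM, then 9.66 and 10.0 RPKM, then 44.7 and 20.1 RPKM. Both were above steady state at 10 min, and at 5 min only the far one was below it in both libraries, from 6 and 8 reads. In Kansl2, a gene of a histone acetyltransferase complex, Snora2b lies 8.31 kb and Snora34 14.9 kb from the start. Snora2b had 14.6 and 12.5 RPKM, then 13.6 and 15.5 RPKM, then 49.3 and 51.0 RPKM. Snora34, with a mean of 17.8 reads in steady state and so not counted above, had 6.38 and 6.07 RPKM, then 2.58 and 1.34 RPKM, then 25.2 and 16.9 RPKM. In Ncl the C/D member Snord82 (3.13 kb) had 64.6 and 74.8 RPKM, then 92.5 and 91.7 RPKM, then 130 and 150 RPKM, and the H/ACA member Snora75 (8.17 kb) had 42.9 and 41.1 RPKM, then 18.4 and 25.2 RPKM, then 73.3 and 59.4 RPKM. In Nop58, Kansl2 and Ncl the member nearer the start had the larger 5-min ratio in WT, while in Wdr43 the ratios were 0.0767 for Snord92 and 0.0912 for Snord53, from 1 or 2 reads per library. The 4 pairs were chosen after their values were seen, and members of other hosts differed in the other direction as well. In Rpl13a, Snord32a (1.28 kb) had a log2 ratio of -0.88 at 5 min and Snord35a (2.31 kb) -0.44, and in Snhg12, Snora16a (0.787 kb) had -1.28 and Snord99 (2.03 kb) -0.63.

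**Figure D4:**
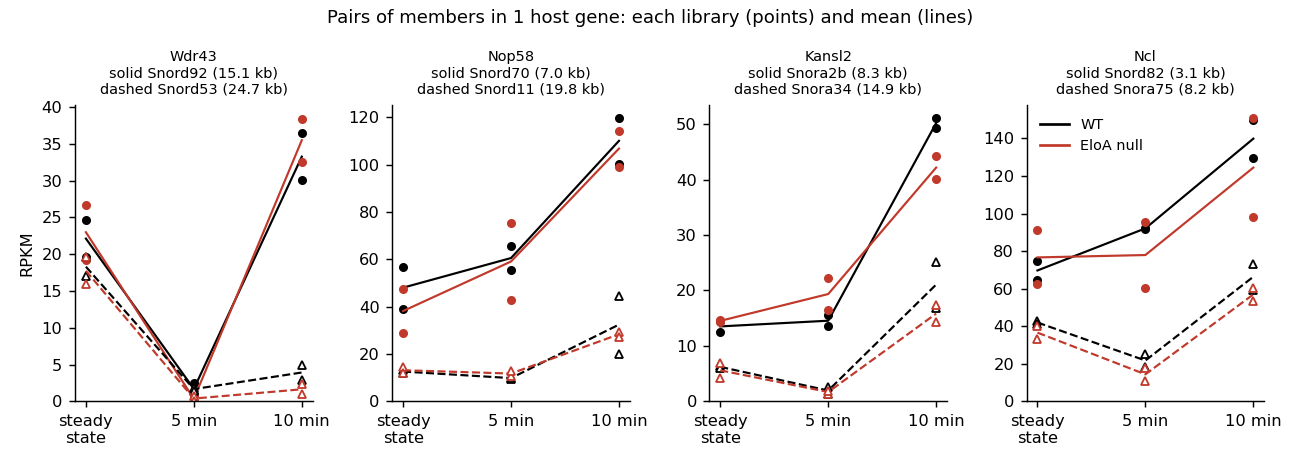
RPKM of 2 members of 1 host gene in steady state and after 5 min and 10 min of recovery; filled circles and solid lines show the member nearer the host's start, open triangles and dashed lines the farther one, points are libraries, lines join the means, WT in black and libraries labelled EloA null in red. In Wdr43, Snord92 (15.1 kb) returned to 30.0 RPKM or more in all 4 libraries at 10 min and Snord53 (24.7 kb) stayed at 4.92 RPKM or less.

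Recovery of a member went with that of its host where the member was near the start. Over 72 members within 10 kb in 51 hosts, Pearson's r between the log2 ratio of member and host in WT was 0.85 at 5 min (Spearman's rho 0.83) and 0.87 at 10 min (rho 0.87). Over all 82 members with a host value it was 0.78 and 0.63. The points share libraries, some share a host, and a member's reads may be part of the host's, so the values are descriptions across genes. The RPKM of a host is an average over all of its introns. Snora23 at 10 min, for example, had 1.42 RPKM against 17.0 RPKM in steady state, while Ipo7 had 13.4 against 9.52 RPKM.

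**Figure D5:**
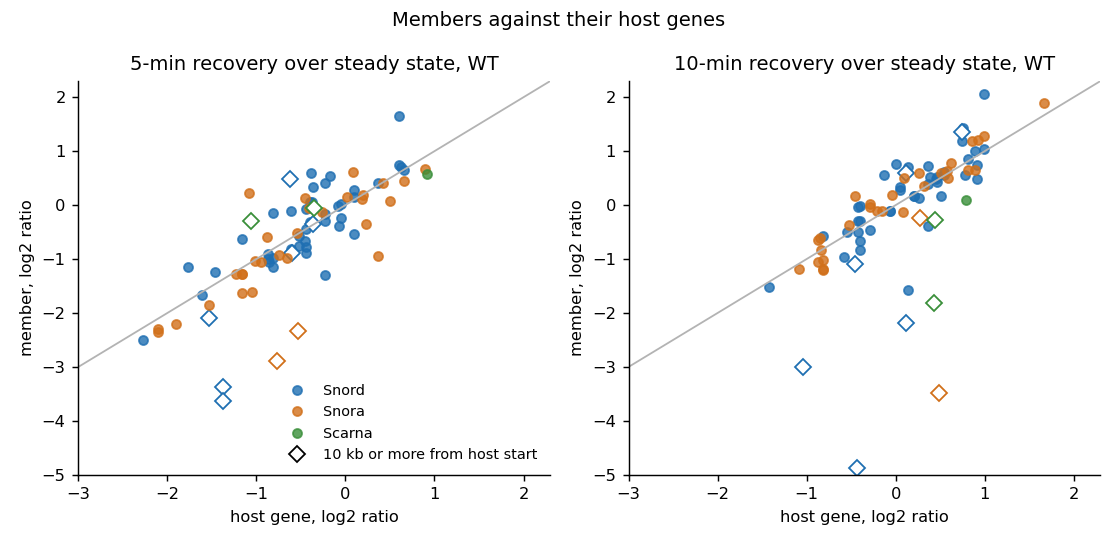
Log2 ratio of mean RPKM + 0.1, recovery over steady state in WT, of each member (vertical axis) against its host gene (horizontal axis); filled circles are members within 10 kb of the host's start, open diamonds those farther away, and the line marks equal ratios. Members within 10 kb follow the line (r of 0.85 and 0.87), and most of those farther away lie below it at 10 min.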

How the data were processed

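Bru-seq was done in 12 libraries, 2 for each genotype and condition, and 16 other samples of the series were not analysed here. The deposited values are RPKM. Per the methods of the study, the authors aligned paired reads with bowtie2 to mm10, kept unique reads, counted them over RefSeq genes with featureCounts and computed RPKM in edgeR. Each of the 3 tables has library sizes of its own and was treated as normalized separately. The libraries were directional and the authors separated reads by strand, but whether strand was used in counting, and how overlapping genes were treated, is not given in the sources used here. The authors' mean columns were not used. The methods name whole genes, but of 9237 expressed genes with introns, 97.2% had RPKM steps that fit the length of the merged introns.

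Reads were recovered from the RPKM steps and gene lengths, and 93.3% of expressed genes gave whole reads (tolerance 0.03). Library sizes recovered this way were 23896883 and 27923430 reads for steady-state WT, 23138263 and 27954110 for steady-state EloA null, 9857577 and 12666276 for WT and 11915500 and 17272749 for EloA null at 5 min, and 18820715 and 22057017 for WT and 19965292 and 28547277 for EloA null at 10 min. Genes above 0.5 RPKM on average in either genotype were tested within each table by limma 3.58.1 (R 4.3.3) on log2(RPKM + 0.1), with Benjamini-Hochberg adjustment over all genes fitted. Fold changes on this scale understate those of low genes. The fit was tested on simulated data, where it missed most changes near the fold limit. Hosts came from RefSeq and sequences from GENCODE positions in GRCm38/mm10. Motifs were searched on the sense strand only.

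The named members were the highest of each class, members with promoters of their own, the 3 with the largest differences in each direction (genotype and recovery), imprinted clusters, the hosts with most members, and genes of snoRNA particles. Further members were named as examples of a host, a pair or a kind of host. The members and lists were chosen with earlier results of these data known. Alternatives were other read limits, pseudocounts, centring, 1 value per host, a replicate block, all 12 libraries in 1 fit and leaving out each library. Exact 2 against 2 permutation tests were not used, as they cannot go below 0.333. The host genes of 2 members, and results that need them, are not reported here.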

Additional observations from a re-analysis of the deposited data

How the results depend on the processing

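With 50 reads to enter, 5 members were past 1.5-fold higher in steady state, 1 after 5 min and 2 after 10 min, and 0 were lower after 5 min. With no limit on reads, 4 were lower in steady state, 11 higher and 15 lower after 5 min, and 15 higher and 4 lower after 10 min. After 5 min the lower count was 4 with 10 reads to enter, and 0 when centred on all genes or with 1 RPKM added. Shares of all genes past 1.5-fold were not computed for these settings, or with single libraries left out. Limma with Benjamini-Hochberg adjustment called 1, 1 and 3 members with 20 reads to enter, and 2 after 5 min and 1 after 10 min in the fit of all 12 libraries. The 5-min genotype medians were -0.20 for both classes with 50 reads, which reversed that of Snora.

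Relative to all genes, the 5-min recovery medians of Snord turned to 0.15 in WT and 0.16 in EloA null, those of Snora were -0.45 and -0.10, and the 10-min Snora median in EloA null was 0.23. With 50 reads the 5-min Snora medians were -0.99 and -1.04. With 1 value per host they were -0.56 in WT at 5 min, and 0.18 in WT and 0.22 in EloA null at 10 min. In 2 alternatives chosen after seeing the data, the Snora medians in WT were -0.60 and 0.17 within 10 kb of the host start, and -0.24 and 0.42 without noncoding hosts (-0.43 and 0.33 in EloA null), where the 5-min Snord medians were -0.34 and -0.61. The steady-state Snord minus Snora difference was 0.17 with no limit and 1.01 with 50 reads. Where not shown by a setting's own construction, the cause was not tested.

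With the replicate number as a block, limma called 0 members in steady state, 6 after 5 min (Snora31, Snord7, Snord71, Snord8, Snord88a and Snord93, with 0.5 to 21.2 mean reads) and 0 after 10 min. The labels tie the numbers to no shared day, and with 2 pairs the same-numbered libraries correlated at 0.17, 0.46 and 0.38 over all genes in the 3 tables.

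Leaving out each library in turn, steady-state counts were 7 to 11 higher and 0 to 6 lower, 4 to 7 and 1 to 8 after 5 min, and 8 to 15 and 0 to 2 after 10 min. The steady-state lower count was 6 without EloA null replicate 1, 2 without EloA null replicate 2 and 1 without WT replicate 1. After 5 min it was 8 without EloA null replicate 2, 3 without EloA null replicate 1 and 2 without WT replicate 1. After 10 min 15 were higher without WT replicate 1, and 2 and 1 lower without WT replicate 2 and EloA null replicate 2. Limma calls were 0, 0 to 1 and 0 to 1. Genotype medians ranged from -0.01 to 0.19 (Snord) and 0.0073 to 0.25 (Snora) in steady state, -0.13 to 0.080 and 0.050 to 0.35 after 5 min, and 0.01 to 0.27 and -0.04 to 0.22 after 10 min. Recovery medians in WT ranged from -0.40 to -0.27 (Snord) and -0.74 to -0.72 (Snora) at 5 min and 0.14 to 0.38 and -0.11 to 0.06 at 10 min. In EloA null they were -0.60 to -0.34, -0.79 to -0.78, 0.17 to 0.34 and 0.11 to 0.14. The steady-state class difference was 0.89 to 0.91. The 5-min libraries, with 9857577 to 17272749 reads, limit the members most.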
